A study of Mus musculus with 8 samples.

Results

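The mouse genes Cttnbp2, Echdc2, Als2cl, Lrch4, Egflam and Dusp16 are described here across 2 populations of liver duct cells. They are 6 of the 20377 gene symbols in the deposited tables. They were chosen by name on these same libraries, as genes whose levels separated the populations with little spread inside each. The first 4 had more reads, relative to library size, in ST14high cells and the last 2 had fewer. Because the measured difference chose them, the differences are given as a description, with no test.

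The study used wild type C57BL/6 mice. The cells were liver NPCs (non-parenchymal cells, those other than hepatocytes), sorted as MIC1-1C3+ (positive for an antigen of liver duct cells) and CD26-, with blood cells left out. ST14 (matriptase, a membrane serine protease of epithelia) then divided them into an ST14high and an ST14low population. RNA was taken from the cells straight after the sort, for 4 libraries per population, and both populations share every gate before the ST14 division. The series title calls the mice adult, with no age. No label says that the samples came from separate animals, so the p-values cover only the variation among these libraries, and this may be technical.

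The totals lay between 17418205 and 42769979 counts per library in ST14high and between 6398306 and 31011664 in ST14low. St14 itself was at 305 ± 32.5 CPM (a read count scaled by library size, with SD and n = 4 for each population) in ST14high and 329.9 ± 49.0 CPM in ST14low (edgeR's quasi-likelihood test, Benjamini-Hochberg adjusted p = 0.809). All 16 listed biliary genes were measured, and summed to between 20746 and 31268 CPM in ST14high and between 24335 and 32445 CPM in ST14low. The sums of 3 lists of other cell types did not overlap between the populations. Summed genes of stellate cells, fibroblasts and smooth muscle (all 12 listed were measured, 10 with a fold change above 0) lay between 725 and 3258 CPM in ST14high and between 316 and 653 CPM in ST14low. Mesothelial genes (7 of 8 listed were measured, 7 with a fold change above 0) summed to between 299 and 1027 CPM in ST14high and between 156 and 269 CPM in ST14low. Genes of macrophages and dendritic cells (11 of 12 listed were tested, 10 with a fold change below 0) summed to between 269 and 391 CPM in ST14high and between 414 and 1100 CPM in ST14low. ST14high replicate 1 stood apart, with the highest sum of the stellate and mesothelial lists and 9800 CPM of pancreatic acinar genes, where the other ST14high libraries had 5.67 to 1425 CPM and ST14low libraries 4.94 to 111 CPM, with Prss1 and Amy2a5 of that list at 0 counts in all. The hepatocyte list was below 0 in fold change for 12 of 12 genes, and its sums overlapped, at 4919 to 12375 CPM in ST14high and 7816 to 14367 CPM in ST14low. Sums also overlapped for endothelium (21.3 to 1303 CPM in ST14high, 276 to 1160 CPM in ST14low), lymphocytes (0.0708 to 12.9 CPM in ST14high, 8.44 to 29.1 CPM in ST14low), other blood cells (2.01 to 13.1 CPM in ST14high, 6.99 to 15.5 CPM in ST14low) and nerve (8.86 to 33.8 CPM in ST14high, 7.79 to 15.3 CPM in ST14low). The part of these other cells in the values below was not tested. In bulk libraries of this kind, a change in the number of cells of a type cannot be told apart from a change in RNA per cell.

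The 6 genes belong to separate cell processes. Cttnbp2 encodes a protein that binds cortactin, a regulator of branched actin, and is known mainly from neurons. Echdc2 encodes a mitochondrial member of the enoyl-CoA hydratase family, whose enzymes act in the breakdown of fatty acids and branched-chain amino acids. Als2cl encodes a protein that binds Rab5, a small GTPase of early endosomes. Lrch4 encodes a leucine-rich repeat protein with a calponin homology domain, known in macrophages as an accessory protein of Toll-like receptor 4 responses. Egflam encodes pikachurin, a secreted matrix protein that binds dystroglycan at photoreceptor synapses. Dusp16 encodes a dual-specificity phosphatase that removes phosphate from the stress-activated kinases JNK and p38.

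The promoters of Lrch4 and Dusp16 are printed because they held the most matches to a short motif among the genes higher and the genes lower in ST14high. RefSeq's table (build GRCm38.p6) held a promoter for all 6 genes, 8 in all. Each stretch is the 250 bases before an annotated start, 5′ to 3′ on the gene's strand. Capitals mark CCAAT on either strand for Lrch4 (chr5:137628873-137629122, plus strand) and GGGCGG on either strand for Dusp16 (chr6:134792629-134792878, minus strand).
Lrch4: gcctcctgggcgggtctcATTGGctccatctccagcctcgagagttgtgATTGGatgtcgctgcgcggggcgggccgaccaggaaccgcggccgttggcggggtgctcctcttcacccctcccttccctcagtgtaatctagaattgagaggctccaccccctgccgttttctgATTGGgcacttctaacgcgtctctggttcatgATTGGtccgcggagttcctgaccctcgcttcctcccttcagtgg
Dusp16: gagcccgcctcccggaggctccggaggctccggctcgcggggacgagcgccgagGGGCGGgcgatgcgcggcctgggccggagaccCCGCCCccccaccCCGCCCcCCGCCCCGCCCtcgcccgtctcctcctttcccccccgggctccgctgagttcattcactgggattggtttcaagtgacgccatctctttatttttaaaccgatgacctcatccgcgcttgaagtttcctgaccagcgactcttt
The Lrch4 stretch held 4 matches to CCAAT, all on the opposite strand, a number reached by 0.84% of the 32851 promoter stretches of that length. The Dusp16 stretch held 5 matches to GGGCGG, where 4.09% of stretches held 4 or more, and it held 1 match to CCAAT. No base was shared between matches to CCAAT and to GGGCGG in either stretch. Among the other members, Egflam had 1 match to CCAAT in each of its stretches, and Cttnbp2, Echdc2 and Als2cl had none, where 33.8% of all stretches hold at least 1. GGGCGG was in stretches of all members but Egflam, and in 32.7% of all stretches. The letters TATAAA (12.4% of all stretches) and TGACGTCA (1.55%) were in none of the members' stretches. CACGTG (6.02%) was in that of Echdc2, TGACTCA (4.46%) in both of Egflam, and GGAATG (12.6%) in those of Echdc2 and Als2cl. G and C made up 54.0% of the Echdc2 stretch and between 61.6% and 74.4% of the others, where the median of all stretches is 52.4%. A match is only a description of these letters.

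Of the 4 members higher in ST14high, Cttnbp2 had the largest difference relative to its own spread. Its kept transcript (NM_080285) spans positions 18316476 to 18464825 of chromosome 6 in the files' build, mm9, on the minus strand. It had 115.9, 106.5, 98.2 and 105.1 CPM in ST14high replicates 1 to 4, against 56.8, 63.8, 60.5 and 72.8 CPM in ST14low replicates 1 to 4. The populations did not overlap, and the lowest ST14high library was 1.35 times the highest ST14low library. The mean was 106 ± 7.29 CPM in ST14high cells against 63.5 ± 6.84 CPM in ST14low cells (SD, n = 4 each). This is a log2 fold change of 0.75 (SE 0.12, 95% interval 0.47 to 1.02), or 1.68-fold.

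Echdc2, the mitochondrial hydratase relative, had the largest fold change of the 6. The transcript (NM_026728) lies on the plus strand of chromosome 4, 107838070 to 107851913 in mm9. Its level was 129, 117, 153 and 152 CPM in ST14high replicates 1 to 4, and 63.2, 76.6, 83.5 and 83.3 CPM in ST14low replicates 1 to 4. No ST14low library reached the lowest ST14high library, replicate 2, which was 1.40 times the highest of them. Means were 138 ± 17.6 CPM in ST14high cells against 76.6 ± 9.51 CPM in ST14low cells, for a log2 fold change of 0.85 (SE 0.14, interval 0.53 to 1.17).

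Als2cl, the gene of the Rab5-binding protein, lies on the plus strand of chromosome 9, 110782825 to 110803034 in mm9 for the kept transcript (NM_001146060). It was at 192, 160, 156 and 161 CPM in ST14high replicates 1 to 4, against 98.6, 95.6, 117.9 and 104 CPM in ST14low replicates 1 to 4. The populations did not overlap. ST14high replicate 1 lay above the other 3 ST14high libraries, which were close together, and ST14low replicate 3, the shallowest library, was the highest of its population. The mean was 167 ± 16.6 CPM in ST14high cells against 104 ± 9.87 CPM in ST14low cells, with a log2 fold change of 0.68 (SE 0.12, interval 0.41 to 0.96), and 0.61 without ST14high replicate 1. The tables hold 3 transcripts of Als2cl with nearly equal read totals, and their log2 ratios of mean CPM were 0.68 to 0.69.

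Lrch4, the leucine-rich repeat gene, was the least abundant of the 6 in CPM. Its longer transcript (NM_146164) spans 138070350 to 138082327 of chromosome 5 in mm9, plus strand. Levels were 67.4, 67.5, 58.3 and 68.9 CPM in ST14high replicates 1 to 4, against 38.0, 38.8, 45.8 and 45.9 CPM in ST14low replicates 1 to 4. ST14high replicate 3 was the lowest of its population and still above every ST14low library. The mean was 65.5 ± 4.88 CPM in ST14high cells against 42.1 ± 4.31 CPM in ST14low cells, a log2 fold change of 0.64 (SE 0.13, interval 0.35 to 0.93).

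The rows of the Lrch4 transcripts differed in the size of the difference. A shorter transcript (NM_001168652) has the same start and end positions, and its row holds fewer reads than that of the longer one. The shorter row held 67.7%, 67.8%, 72.2% and 58.8% of the longer row's reads in ST14high replicates 1 to 4, and 69.8%, 76.2%, 72.1% and 74.0% in ST14low replicates 1 to 4. These shares overlapped between the populations, with means of 66.6 ± 5.60% in ST14high and 73.0 ± 2.72% in ST14low (SD, n = 4 each). The longer row minus the shorter one came to 22.0 ± 4.98 CPM in ST14high cells against 11.4 ± 1.53 CPM in ST14low cells, without overlap. The longer row is the one on which Lrch4 was chosen, so this lack of overlap is a description only. The shorter row's log2 ratio of mean CPM was 0.50. For Dusp16 the shorter row's share was alike, at 78.7 ± 1.81% in ST14high and 79.4 ± 1.81% in ST14low. The same subtraction for Dusp16 gave 47.5 ± 4.65 CPM in ST14high cells against 62.7 ± 8.07 CPM in ST14low cells, also without overlap.

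Egflam, the gene of pikachurin, was lower in ST14high. It lies on the minus strand of chromosome 15, 7156119 to 7348304 in mm9 (NM_178748). It had 114, 163, 162 and 130.0 CPM in ST14high replicates 1 to 4, against 216, 228, 201 and 209.9 CPM in ST14low replicates 1 to 4. All ST14low libraries lay above all ST14high libraries, and the ST14high libraries were spread widely, in pairs at 114 and 130.0 CPM and at 162 and 163 CPM. The mean was 142 ± 24.1 CPM in ST14high cells against 214 ± 11.2 CPM in ST14low cells. The log2 fold change was -0.59 (SE 0.14, interval -0.91 to -0.27), and -0.50 without ST14high replicate 1, its lowest library.

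Dusp16, the phosphatase of stress-activated kinases, had the most reads of the 6, 50808 over all libraries. Its longer transcript (NM_130447) spans 134665490 to 134742646 of chromosome 6 in mm9, minus strand. It was at 229, 206, 256 and 207 CPM in ST14high replicates 1 to 4, and at 287, 317, 328 and 287 CPM in ST14low replicates 1 to 4. The gap was the narrowest of the 6: the lowest ST14low library was 1.12 times the highest ST14high library, replicate 3. Means were 224 ± 23.5 CPM in ST14high cells against 304.7 ± 21.1 CPM in ST14low cells, for a log2 fold change of -0.44 (SE 0.12, interval -0.72 to -0.16). Other symbols in the tables did not overlap the span of any of the 6 genes.

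**Figure D1:**
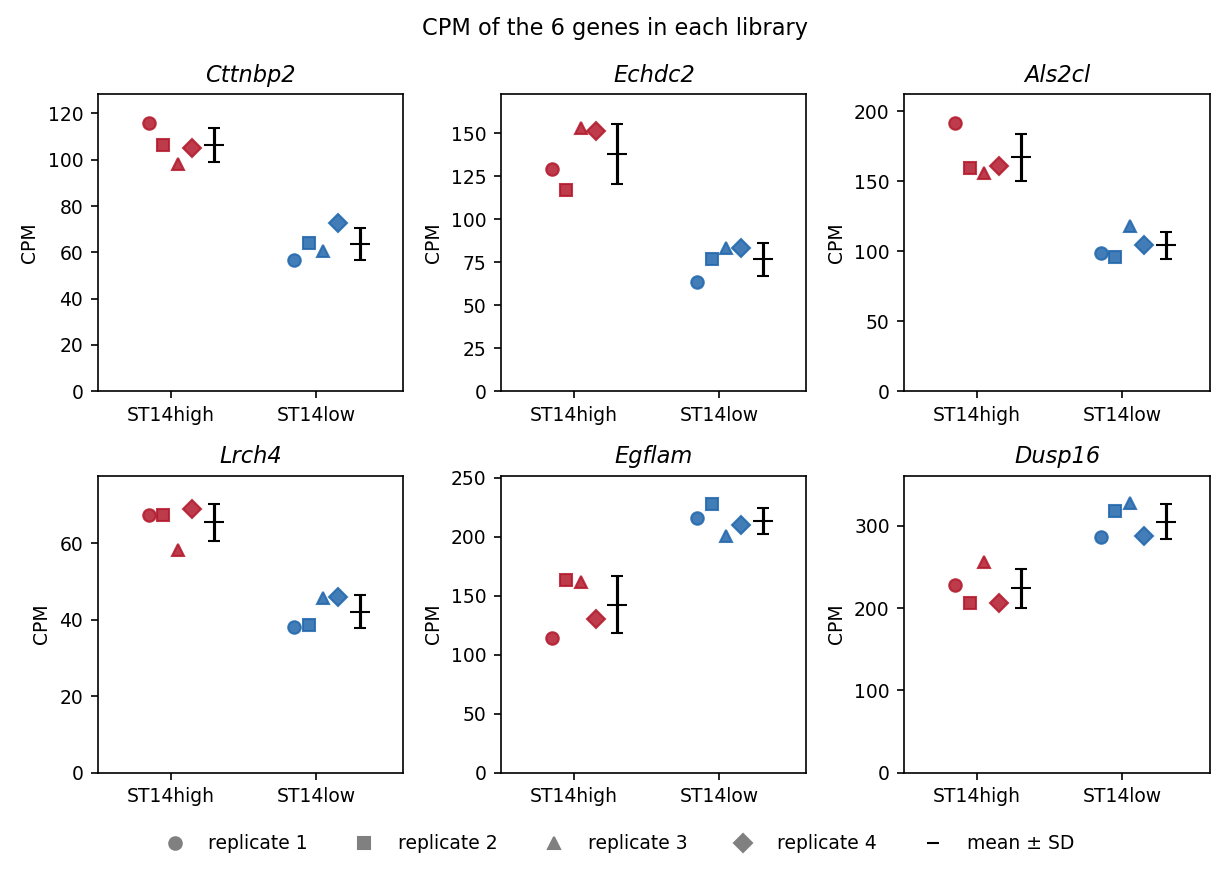
CPM (vertical axis, from 0) of each gene in the 4 ST14high and 4 ST14low libraries, with a marker shape for each replicate and the mean ± SD beside them. Cttnbp2, Echdc2, Als2cl and Lrch4 lie higher in every ST14high library than in any ST14low library, and Egflam and Dusp16 lie lower.

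Across all 13749 genes that passed the low-count filter, 563 genes were higher without overlap in ST14high, 4.09% of those tested, and 320 were lower without overlap, 2.33%. All 6 members passed the filter and are among them by choice, so nothing is read from that. In edgeR 0 genes passed an adjusted p of 0.05 (percent called 0), 1315 had an unadjusted p under 0.05 (9.56%), 947 of them higher (6.89%) and 368 lower (2.68%), and limma's voom called 0. DESeq2 called 234 of the 13580 genes with an adjusted p (1.72%), 220 higher (1.62%) and 14 lower (0.103%). All 6 members were in that set, from which nothing is read, since the same contrast chose them. The call did not hold for every member over the 8 fits that each left out 1 library. In those fits DESeq2 called Cttnbp2, Echdc2 and Als2cl 8 times, Lrch4 7 times, Egflam 5 times and Dusp16 2 times.

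Per length of transcript, the 6 genes ranged widely. In the authors' RPKM (reads scaled by transcript length and library total), Echdc2 was highest, at 149 ± 21.2 in ST14high and 84.6 ± 11.2 in ST14low, above 96.2% of the genes tested. Dusp16 followed at 45.8 ± 4.37 RPKM in ST14high cells against 63.5 ± 3.97 RPKM in ST14low cells. Egflam was at 35.7 ± 7.45 RPKM in ST14high cells against 54.2 ± 2.13 RPKM in ST14low cells. Als2cl was at 39.4 ± 1.98 RPKM in ST14high cells against 25.1 ± 2.64 RPKM in ST14low cells. The order of this pair was therefore opposite in the means of the 2 populations. Its libraries overlapped in ST14high, at 36.9 to 41.8 RPKM for Als2cl and 26.2 to 42.8 RPKM for Egflam, and did not overlap in ST14low. Lrch4 came next, at 26.8 ± 2.65 RPKM in ST14high cells against 17.6 ± 2.07 RPKM in ST14low cells, and overlapped Egflam in ST14high. Cttnbp2 was lowest in both, at 20.7 ± 1.14 RPKM in ST14high cells against 12.6 ± 1.52 RPKM in ST14low cells, above 56.7% of the genes tested. Between other neighbours in this order the libraries of a population did not overlap.

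The spread within a population was above counting error for all 6. Each gene had at least 297 counts in each library. The SD was 6.84% of the mean for Cttnbp2 in ST14high and 10.8% in ST14low, where counting error alone would give 1.90% and 3.37%. For Egflam the SD was 17.0% of the mean in ST14high and 5.23% in ST14low, with counting errors of 1.71% and 1.83%. The other 4 genes had SDs between 7.45% and 12.8% of the mean in ST14high and between 6.94% and 12.4% in ST14low. On the log2 CPM scale, the pooled within-population SD was 0.13 for Dusp16, Cttnbp2 and Lrch4, 0.14 for Als2cl and 0.19 for Egflam and Echdc2. The median over the 10276 tested genes with a mean of at least 10 CPM was 0.27. The difference of means was 5.86 pooled SDs for Cttnbp2, 5.05 for Als2cl, 4.88 for Lrch4 and 4.50 for Echdc2, and these were ranks 2, 7, 9 and 13 among genes higher in ST14high. It was -3.53 pooled SDs for Dusp16 and -3.24 for Egflam, ranks 13 and 20 among genes lower in ST14high. Of the 10276 genes, 22.0% had a smaller pooled SD than Echdc2 and 21.2% a smaller one than Egflam. Little spread and a clear difference chose the members, so these SDs and ranks are a description only.

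**Figure D2:**
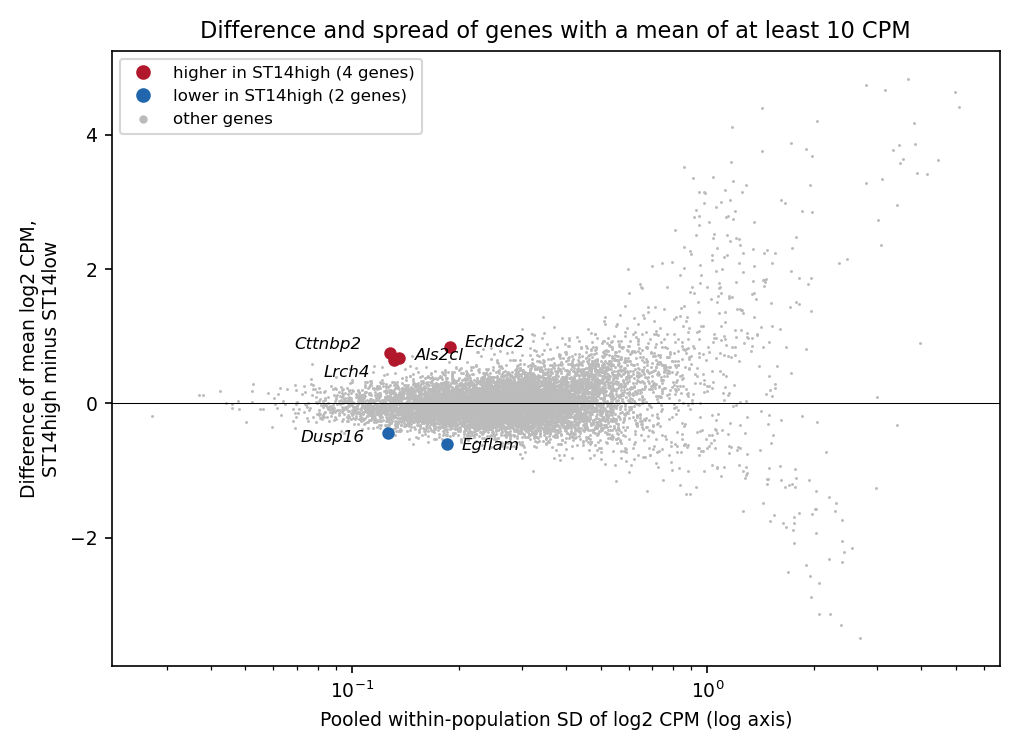
Difference of mean log2 CPM, ST14high minus ST14low (vertical axis), against the pooled within-population SD of log2 CPM (horizontal log axis) for 10276 genes with a mean of at least 10 CPM. The 6 genes lie at SDs of 0.13 to 0.19 and at the outer edge of the grey points of like spread, which follows from their choice.

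Leaving out each library in turn moved the fold changes by little, which follows from their choice as genes of little spread. Over the 8 such fits, the log2 fold change was 0.69 to 0.81 for Cttnbp2, 0.76 to 0.92 for Echdc2, 0.61 to 0.74 for Als2cl and 0.59 to 0.68 for Lrch4. It was -0.67 to -0.50 for Egflam and -0.53 to -0.41 for Dusp16. The populations stayed apart in all 8 fits for all 6 genes, which follows from their choice as genes that do not overlap and is no sign of stability.

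**Figure D3:**
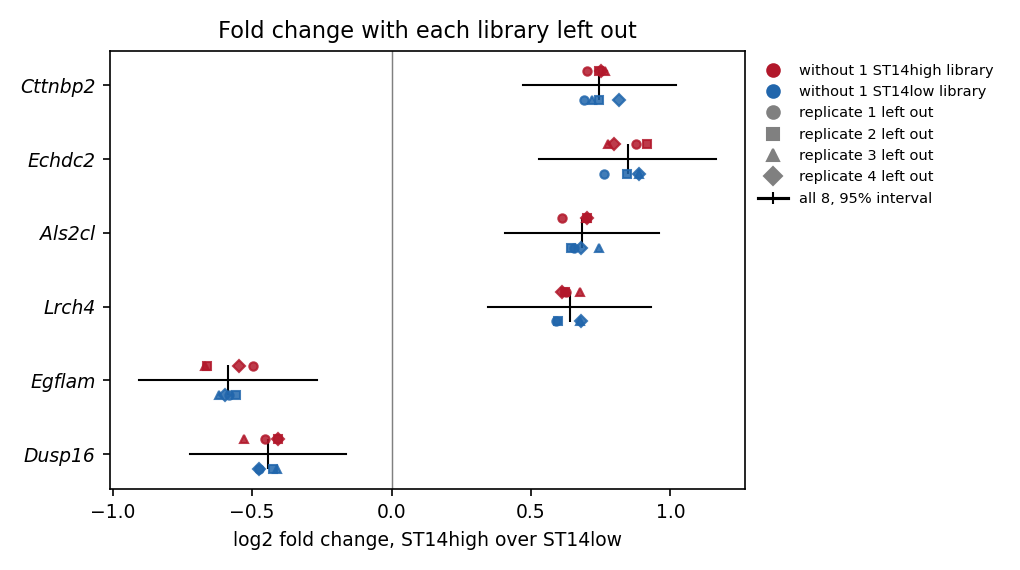
Log2 fold change, ST14high over ST14low (horizontal axis), of each gene with all 8 libraries (bar, with its 95% interval) and with 1 library left out (points, coloured by the population that lost a library and shaped by its replicate). Values without 1 library lie within the interval of all 8 for every gene, which is a description and no sign of stability.

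Ratios of the genes within a library do not depend on library size. The count of Als2cl over that of Dusp16 was 0.839, 0.776, 0.610 and 0.777 in ST14high replicates 1 to 4, against 0.344, 0.301, 0.360 and 0.363 in ST14low replicates 1 to 4. Cttnbp2 over Egflam was 1.01, 0.652, 0.608 and 0.808 in ST14high replicates 1 to 4, and 0.263, 0.280, 0.301 and 0.347 in ST14low replicates 1 to 4. Both ratios put a gene that was higher over a gene that was lower, so their lack of overlap between the populations follows from the choice of the genes and is a description only. The ratio of a pair that lay higher together overlapped: Als2cl over Cttnbp2 was 1.50 to 1.65 in ST14high and 1.43 to 1.95 in ST14low. So did Dusp16 over Egflam, at 1.26 to 2.0 in ST14high and 1.33 to 1.63 in ST14low.

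**Figure D4:**
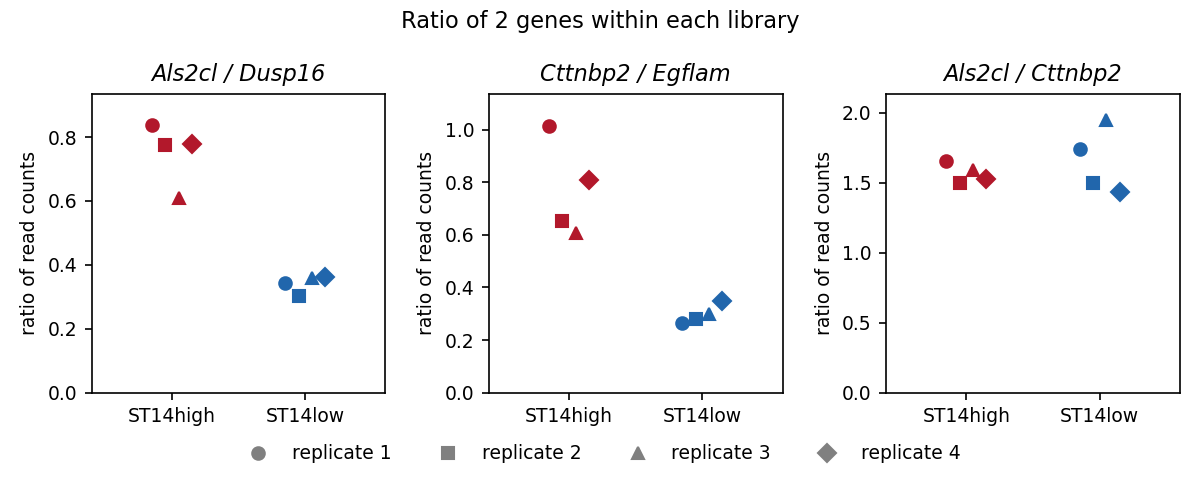
Ratio of read counts of 2 genes in each library (vertical axis, from 0), with a marker shape for each replicate. Als2cl over Dusp16 and Cttnbp2 over Egflam are higher in every ST14high library than in any ST14low library, while Als2cl over Cttnbp2 overlaps at 1.43 to 1.95.

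Of the members that lay higher, Cttnbp2, Lrch4 and Als2cl were close to each other in profile over the libraries, and Echdc2 was farther away. Echdc2 was at rank 72 from Als2cl, rank 66 from Lrch4 and rank 10 from Cttnbp2. Seen from Echdc2, Cttnbp2, Lrch4 and Als2cl were at ranks 7, 10 and 13. Likeness was measured as the root mean square difference of mean-centred log2 CPM over the 8 libraries, so it holds the difference between populations that chose the members. Of 10275 other genes, the one closest to Cttnbp2 was Lrch4 (0.11), and the one closest to Lrch4 was Als2cl (0.10). The next for both was Map4k2, a kinase upstream of JNK (0.13 from Cttnbp2 and 0.11 from Lrch4), which was also closest to Echdc2 (0.12). Map4k2 was at 31.4 ± 0.997 CPM in ST14high cells against 19.3 ± 2.59 CPM in ST14low cells. Second to Echdc2 was Vegfa, a growth factor of blood vessels (0.15), at 866 ± 72.6 CPM in ST14high cells against 544 ± 51.6 CPM in ST14low cells. Als2cl was closest to Myo19, a myosin of mitochondria (0.098), and Agtpbp1, an enzyme that trims tubulin tails (0.098). The lower pair was farther apart: Egflam was rank 403 from Dusp16, at 0.20, and Dusp16 rank 217 from Egflam. Egflam was closest to Spon2, a secreted matrix protein (0.10), and D030056L22Rik (0.10), and Dusp16 to Unc93b1, which carries Toll-like receptors to endosomes, and Tspyl1 (0.11 each).

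Relatives and partners of the 6 genes were listed by known family or binding, 134 genes in 6 lists, of which 132 passed the filter. In edgeR 0 of them passed an adjusted p of 0.05 over all genes, and voom called 0. An unadjusted edgeR p under 0.05 was found for 14 (12 higher and 2 lower in ST14high), 10.6% where all genes gave 9.56%. DESeq2 called 1 of them, where it called 1.72% of all genes with an adjusted p. The populations did not overlap for 8 of them, 6.06% against 6.42% of all genes. Their median log2 fold change was 0.015, and that of all genes tested was 0.0023.

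Relatives and partners of Cttnbp2 named here had fold changes nearer to 0 than Cttnbp2 itself, which was chosen by its difference. Cttnbp2nl, the N-terminal relative of Cttnbp2, was at 109 ± 20.5 CPM in ST14high cells against 102 ± 10.4 CPM in ST14low cells, a log2 fold change of 0.099 with an interval from -0.24 to 0.44. Cttn (cortactin) was at 238 ± 34.4 CPM in ST14high cells against 205 ± 17.2 CPM in ST14low cells. Of the 22 genes listed around Cttnbp2 (cortactin and the striatin phosphatase complex), 11 had a fold change above 0 and 11 below.

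Relatives of Echdc2 in its enzyme family differed by less than Echdc2, which was chosen by its difference. Echdc1, a cytosolic enzyme that removes a side product of fatty acid synthesis, was at 77.3 ± 8.03 CPM in ST14high cells against 72.4 ± 7.45 CPM in ST14low cells. Echdc3 was at 30.6 ± 9.55 CPM in ST14high cells against 39.8 ± 6.76 CPM in ST14low cells (edgeR adjusted p = 0.612). Of 18 listed hydratases and neighbouring enzymes, 0 had an unadjusted p under 0.05 and 0 were called by DESeq2, where all genes gave 9.56% and 1.72%. Of these 18, 7 had a fold change above 0 and 11 below, and the range was -0.38 to 0.23 where Echdc2 had 0.85.

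Of 17 genes listed around Als2cl for Rab5 exchange, 3 had an unadjusted p under 0.05 (17.6%, where all genes gave 9.56%), all higher in ST14high, the more frequent direction over all genes too (6.89% higher and 2.68% lower). The smallest was that of Rin1, a Rab5 exchange factor, at 32.0, 9.55, 13.9 and 12 CPM in ST14high replicates 1 to 4, against 7.50, 8.25, 8.33 and 7.38 CPM in ST14low replicates 1 to 4. Its log2 fold change was 1.10 (edgeR adjusted p = 0.393), and 0.59 without ST14high replicate 1, its highest library.

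In the Lrch family, Lrch1 was at 140 ± 10.2 CPM in ST14high cells against 137 ± 19.5 CPM in ST14low cells, and Lrch3 at 85.6 ± 3.44 CPM in ST14high cells against 78.1 ± 12.5 CPM in ST14low cells. Lrch2 was low, at 6.66 ± 1.32 CPM in ST14high cells against 7.89 ± 3.15 CPM in ST14low cells. The list also held genes of the Tlr4 complex and exchange factors of the Dock family, some of which bind Lrch proteins. Of its 16 genes, 2 had an unadjusted p under 0.05 in edgeR (12.5%, where all genes gave 9.56%), both higher in ST14high. They were Tlr4, named after its values were seen, and Dock6. Tlr4 was at 47.5, 6.92, 3.16 and 8.55 CPM in ST14high replicates 1 to 4, against 4.01 ± 2.20 CPM in ST14low cells (edgeR adjusted p = 0.459). Its populations overlapped. Dock6, which activates Rac and Cdc42, was the only gene of the 6 lists that DESeq2 called with all 8 libraries (adjusted p = 0.017). Over the 8 fits without 1 library, DESeq2 called 0 to 5 list genes, where it called 161 to 421 over all genes. It called 5 list genes when ST14high replicate 3, 4 when ST14low replicate 3 and 2 when ST14high replicate 2 was left out. Dock6 was at 87.3, 58.5, 70.6 and 83.7 CPM in ST14high replicates 1 to 4, against 41.3, 37.9, 55.7 and 45.7 CPM in ST14low replicates 1 to 4. The populations did not overlap, by a narrow gap between ST14high replicate 2 and ST14low replicate 3. Its log2 fold change was 0.74 (SE 0.18) and its edgeR adjusted p = 0.246. Leaving out ST14high replicate 1 or 4 ended the DESeq2 call (adjusted p = 0.0589 and 0.0999), as did leaving out ST14low replicate 1, 2 or 4 (adjusted p = 0.140, 0.0777 and 0.0988).

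Around Egflam, its receptor gene Dag1 (dystroglycan) was at 546 ± 31.1 CPM in ST14high cells against 552 ± 64.5 CPM in ST14low cells. Its log2 fold change was -0.014, with an interval from -0.30 to 0.28. Agrn (agrin, another dystroglycan ligand) was at 1543 ± 218 CPM in ST14high cells against 1321 ± 23.6 CPM in ST14low cells. Of 33 tested genes of 35 listed, 5 had an unadjusted p under 0.05 (15.2%, where all genes gave 9.56%), all higher in ST14high, where all genes gave 6.89% higher and 2.68% lower. The smallest was that of Sgcd, a sarcoglycan of muscle, on 166 counts in all, at 1.62 ± 1.50 CPM in ST14high cells against 0.216 ± 0.0665 CPM in ST14low cells (edgeR adjusted p = 0.306). Sgcd was highest in ST14high replicate 1, at 3.73 CPM, the library with the highest sum of stellate cell, fibroblast and smooth muscle genes. The part of those cells in it was not tested. The populations did not overlap for 2 of the 33 genes (6.06%, where all genes gave 6.42%), Sgcd and Lama5. Lama5, a laminin chain gene named after its values were seen, was at 690 ± 108 CPM in ST14high cells against 484 ± 80.0 CPM in ST14low cells (edgeR adjusted p = 0.393).

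Around Dusp16, the list holds genes of its JNK and p38 substrates. Mapk8 (JNK1) was at 41.8 ± 2.42 CPM in ST14high cells against 38.7 ± 6.37 CPM in ST14low cells, Mapk9 (JNK2) at 153 ± 9.01 CPM in ST14high cells against 156 ± 18.4 CPM in ST14low cells, and Mapk14 (p38 alpha) at 124 ± 6.66 CPM in ST14high cells against 123 ± 14.6 CPM in ST14low cells. The intervals of their log2 fold changes were -0.22 to 0.45, -0.30 to 0.25 and -0.25 to 0.29. The other JNK and p38 genes of the list, named after their values were seen, had larger fold changes. Mapk10 (JNK3), on 158 counts in all, was at 1.22 ± 0.789 CPM in ST14high cells against 0.336 ± 0.0764 CPM in ST14low cells, without overlap, a log2 fold change of 1.82 (edgeR adjusted p = 0.455). The log2 fold changes of Mapk11, Mapk12 and Mapk13 were 0.88, 0.42 and 0.35, with populations that overlapped. Among phosphatases, Dusp6, which acts on ERK, had the smallest unadjusted p of the list, at 322, 351, 483 and 389 CPM in ST14high replicates 1 to 4, against 562, 587, 451 and 556 CPM in ST14low replicates 1 to 4. The populations overlapped, since ST14high replicate 3 lay above ST14low replicate 3, and the edgeR adjusted p was 0.393 for a log2 fold change of -0.48. Dusp1, an early response phosphatase, was at 1139 ± 214 CPM in ST14high cells against 1568 ± 573 CPM in ST14low cells (edgeR adjusted p = 0.584). Dusp8 and Dusp10, like Dusp16, act on JNK and p38. Dusp8 was at 31.0 ± 26.6 CPM in ST14high cells against 24.9 ± 12.2 CPM in ST14low cells, and Dusp10 at 36.6 ± 31.7 CPM in ST14high cells against 24.8 ± 3.93 CPM in ST14low cells. ST14high replicate 1 was far above the rest in both, at 70.5 CPM for Dusp8 and 84.2 CPM for Dusp10, while the other 3 ST14high libraries were at 13.6 to 22.3 CPM and 19.7 to 21.3 CPM.

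**Figure D5:**
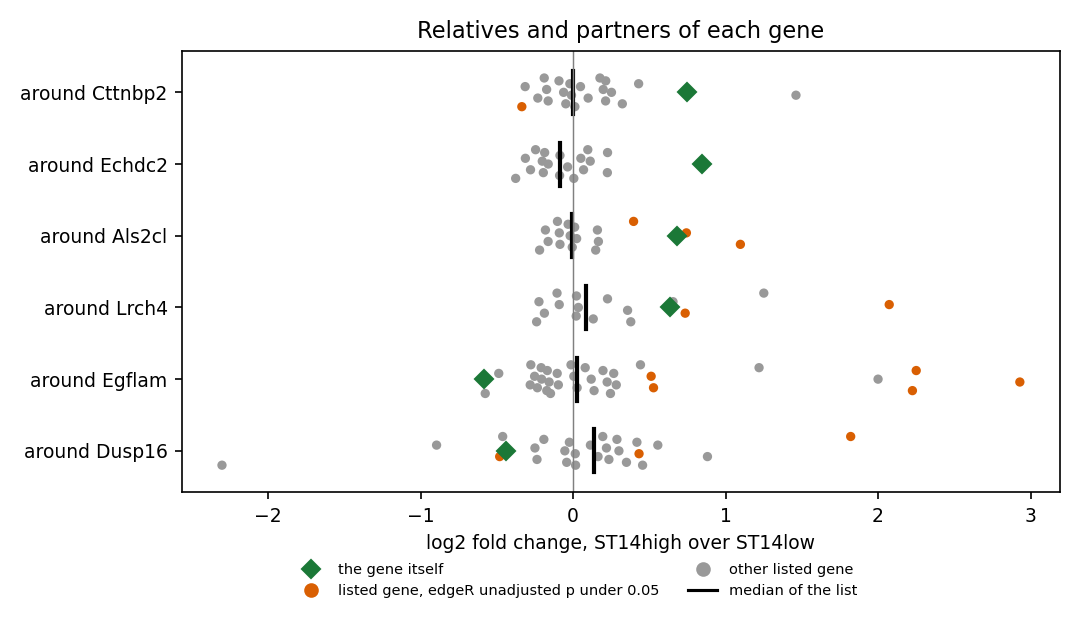
Log2 fold change, ST14high over ST14low (horizontal axis), of the listed relatives and partners of each gene that passed the filter (points), their median (bar) and the gene itself (diamond). The medians lie between -0.087 and 0.14, while the 6 genes lie between -0.59 and 0.85. The 6 genes were chosen by this contrast, so their distance from the medians is a description only. Single listed genes lie between -2.30 and 2.93.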

How the data were processed

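Per the file headers, the authors deposited raw read counts and RPKM values for each RefSeq transcript. The submitters' processing notes name CASAVA 1.8.2, Bowtie 1.0.0 and build mm9. Which program counted the reads, from which annotation release and with what strand setting is not given in the sources used here, so reads of opposite strands may be counted together. The tables held 26005 rows for 20377 symbols. For the 3507 symbols with several rows, the row with the most reads was kept. The RPKM values that the authors deposited were used only to compare levels per length.

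Differences were fitted with edgeR 4.0.16 (R 4.3.3; quasi-likelihood test, TMM factors, filterByExpr, the population as only term, two-sided p-values adjusted by Benjamini-Hochberg with a threshold of 0.05). DESeq2 1.42.0 and limma 3.58.1 (voom with quality weights) were run beside it. The common biological coefficient of variation was 38.4%. Spread was computed on log2 CPM with a prior count of 2. The procedure was tested on simulated data. Other settings were DESeq2 size factors, library totals, the longest transcript, no low-count filter, the replicate block and leaving out each library. Tables and plots were made in Python 3.11.15 (pandas 2.3.3, numpy 2.4.6, matplotlib 3.10.9).

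The members and lists were chosen with earlier results of these data known. Genes named beside the members were St14, fixed relatives and partners, the gene of smallest unadjusted p in each list, the 2 most like profiles per member and the 5 genes in each direction with the largest difference over spread (the last 2 rules for genes with a mean of at least 10 CPM). Some genes that these rules name are not reported here. All 134 list genes matched a table symbol, some by an older symbol. Marker lists for hepatocytes, lymphocytes, endothelium, blood cells and nerve were also summed. No protein sequences were used here.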

Additional observations from a re-analysis of the deposited data

Results flagged for a closer look

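Of 86 groups of 4 libraries examined for 43 named genes, 8 held a library far from the other 3 by Dixon's test at the 95% level, where chance flags about 1 in 20 groups. Among the 6 genes, Als2cl was at 192 CPM in ST14high replicate 1, where the other 3 libraries were at 156 to 161 CPM. Lrch4 was at 58.3 CPM in ST14high replicate 3, where the others were at 67.4 to 68.9 CPM. St14 was at 354 CPM in that same library, ST14high replicate 3, with the others at 286 to 291 CPM. In ST14high replicate 1, Dusp8 was at 70.5 CPM, Dusp10 at 84.2 CPM and Stoml1 at 25.4 CPM, with the others at 13.6 to 22.3, 19.7 to 21.3 and 27.9 to 28.4 CPM. In ST14low replicate 2, Dusp10 was at 30.6 CPM and D030056L22Rik at 21.1 CPM, with the others at 22.1 to 23.5 and 17.4 to 18.0 CPM.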

How the results depend on the processing

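The log2 fold changes of the 6 genes kept their direction and moved by less than 1 pooled SD under all 7 other settings. The same held in all 8 fits without 1 library, which follows from their choice and is no sign of stability. Over the 7 settings the range was 0.70 to 0.75 for Cttnbp2, 0.74 to 0.85 for Echdc2 and 0.62 to 0.68 for Als2cl. It was 0.61 to 0.64 for Lrch4, -0.60 to -0.46 for Egflam and -0.48 to -0.44 for Dusp16. The number of genes called over all genes was 0 in edgeR and 234 in DESeq2, and for the partner lists 0 and 1; the cause was not tested. With the replicate number as a block edgeR called 2 genes. The deviations of same-numbered libraries had correlations of 0.052, 0.052, -0.12 and 0.0053, and not every library was closest to its own number. With so few libraries this cannot decide whether same-numbered libraries share an origin, and no label says. Without ST14high replicate 3 DESeq2 called 421 genes, and 161 to 421 over all fits without 1 library. Partner genes called by DESeq2 were 0 to 5 over those fits. Genes without overlap numbered 883, 806 to 970 under other settings, and 1147 to 1777 without 1 library, since fewer libraries must then stand apart. Depth was lowest in ST14low replicate 3, where Lrch4 had 297 counts. Counting errors cover reads only.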

Other observations

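Other genes also had a large difference relative to their spread, most with smaller fold changes than the 6 described. Over genes with a mean of at least 10 CPM, Myo19, a myosin of mitochondria, ranked first among those higher, at 20.8 ± 0.836 CPM in ST14high cells against 13.8 ± 0.908 CPM in ST14low cells (SD, n = 4 each), with a log2 fold change of 0.59. After Cttnbp2 came Apbb3, an adaptor of amyloid precursor protein (0.29), Agtpbp1 (0.69) and Ikbke, a kinase of antiviral signalling (0.51). First among those lower was Cyfip1, a subunit of the actin-regulating WAVE complex, at 142 ± 3.44 CPM in ST14high cells against 161 ± 1.83 CPM in ST14low cells, a log2 fold change of -0.19. It was followed by Stoml1 (-0.36), Mrfap1 (-0.27) and 1110067D22Rik (-0.36). Their ranks come from the contrast itself, so no test is given.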
